A study of Mus musculus with 12 samples.

Results

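The genes described here are 10 of the 18193 gene symbols measured, namely those that the ERK pathway is known to switch on as its own brakes or as its transcriptional output. They were taken by symbol: *Dusp4* and *Dusp6*, *Spry1*, *Spry2* and *Spry4*, *Spred1*, *Etv4* and *Etv5*, *Phlda1* and *Myc*. All 10 were found, on 24 probe sets, and 23 of these probe sets passed the filter on dim signals. The exception was the *Spred1* probe set 1445228_at.

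RNA of 6 mouse ESC lines was measured on Affymetrix arrays, with 1 array of OHT+ and 1 of OHT- cells per line, so 12 arrays in all. Every line derived from 129/B6 hybrid ESCs that were *Ring1A*-/-; *Ring1B* fl/fl; *Rosa26::CreERT2*, so by genotype all of them lacked Ring1A, and OHT- cells still carried endogenous Ring1B. OHT+ cells had been given 4-hydroxytamoxifen, which activates Cre in these cells, at 800 nM for 24 hours and were taken on day 2, after deletion of *Ring1B*. Of the 6 lines, 3 expressed a mutant Ring1B (I53S #1, I53S #4 and I53A #1), 1 carried the empty vector (mock), and 2 expressed WT Ring1B (WT #1 and WT #3). The constructs were Flag-tagged and came from stable transfection under a CAG promoter, and each line is a single transfectant line. The mutants carry an isoleucine substitution in the RING finger, at the surface that binds the ubiquitin-carrying E2 enzyme. The authors reported that WT Ring1B restored ubiquitin on histone H2A in cells without endogenous Ring1B, and that the mutants did not. Lines served as the replicates of a construct, and the mock construct had 1 line, so its error was borrowed from the spread of the other lines.

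ERK is the last kinase of the RAS, RAF and MEK cascade, which in ESCs is driven mainly by FGF4 that the cells themselves secrete, and which primes them to leave self-renewal. Active ERK induces dual-specificity phosphatases that remove its activating phosphates, and Sprouty and Spred proteins that block the cascade between the receptor and RAF. It also induces the PEA3 family of ETS transcription factors, *Etv4* and *Etv5*, and immediate or delayed early genes such as *Myc*. Transcripts of these genes are widely read as a gauge of pathway activity; the arrays measured only the transcripts, not ERK itself.

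The values below are log2 signals after quantile normalization of the 12 arrays, and a change is OHT+ minus OHT- of 1 line, on the log2 scale. Medians of the deposited arrays ran from 4.66 to 5.67 before normalization, and the arrays, also before normalization, correlated at 0.97 to 0.99 with each other. For *Rnf2*, the gene of Ring1B, OHT+ minus OHT- was -0.29 to 0.20 for mutant lines, -0.26 for mock and -0.23 to 0.05 for WT. *Ring1*, the gene of Ring1A, read 5.24 to 6.49 on the 12 arrays, above the signal threshold of 3.94, although every line is labelled *Ring1A*-/-. Neither gene checks its deletion, since the position of the probe sets relative to the deleted part was not given in the sources used here, and for *Rnf2* a transfected copy may be read too. All 8 ESC markers were above that threshold on every array. Arrays were few, which limits the precision of every value.

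Among the 10 genes, *Etv5* and *Myc* were called lower in the mutant lines after OHT, and no member was called higher. The adjusted p-value (limma, Benjamini-Hochberg over all 16432 genes tested) was under 0.05 for these 2 members, against 1.55% of all genes called lower, 4.91% called higher and 6.46% in either direction in the same fit. At an unadjusted p under 0.05, 4 members were lower and 1 was higher, against 23.7% of all genes in either direction. The median change of the 10 members was -0.14, beside -0.01 over all genes tested. In the mock line no member was called, against 0.383% of genes called lower, 1.29% called higher and 1.67% in either direction, although 5 members had an unadjusted p under 0.05 (19.9% of all genes), and the median over the members was -0.23. In the WT lines no member was called, nor did any have an unadjusted p under 0.05 (0% and 7.61% of all genes), and the median was 0.03.

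**Figure D1:**
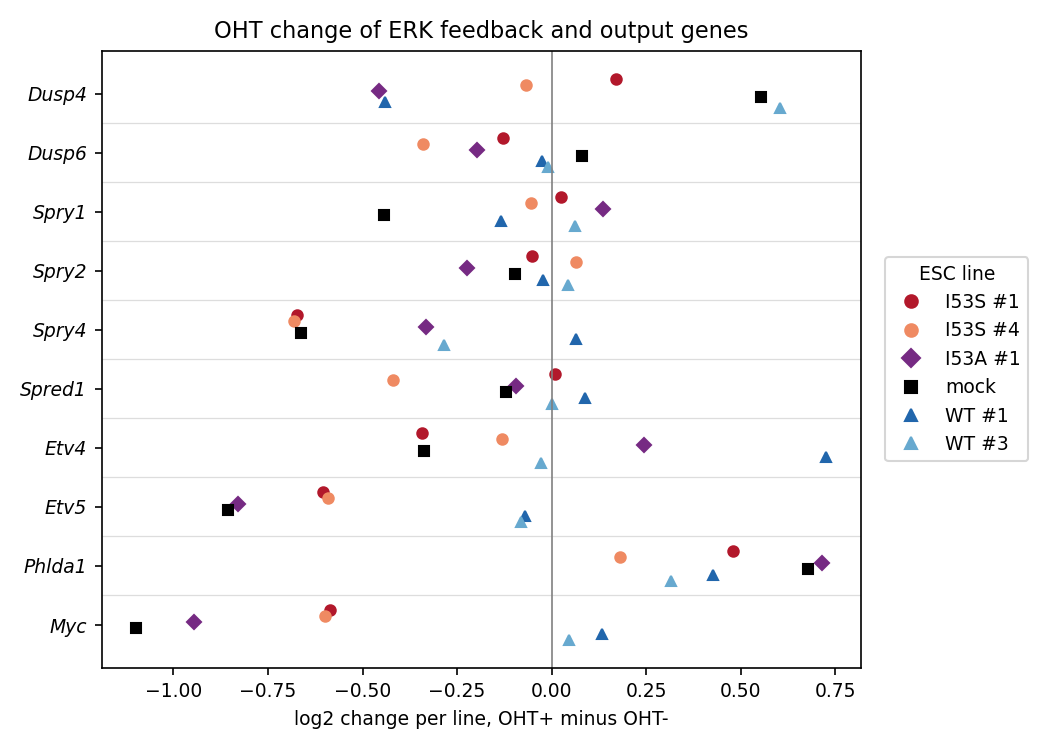
Log2 change (OHT+ minus OHT-) of each gene in each ESC line, with 1 point per line: circles for I53S, diamonds for I53A, squares for mock and triangles for WT. For *Etv5* and *Myc* the 3 mutant lines and the mock line lie between -1.10 and -0.59, while both WT lines lie between -0.08 and 0.13.

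The phosphatases come first, as they act on ERK directly. *Dusp6* encodes a cytoplasmic phosphatase with high selectivity for ERK. Its signal (1415834_at) was 8.83, 9.51 and 9.25 on the OHT+ arrays of I53S #1, I53S #4 and I53A #1, against 8.96, 9.85 and 9.45 on their OHT- arrays. In the mock line it was 8.94 with OHT and 8.86 without, and in WT #1 and WT #3 it was 9.10 and 9.44 with OHT, against 9.12 and 9.45 without. Each mutant line was thus a little lower with OHT, the mock line was not, and the WT lines had changes of -0.03 and -0.01. The mean change in the mutant lines was -0.22 ± 0.11 (SD, n = 3), which did not pass the test (limma, adjusted p = 0.208).

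*Dusp4* encodes a nuclear phosphatase of the same family. Its single probe set (1428834_at) read 6.64, 6.19 and 5.25 on the OHT+ arrays of I53S #1, I53S #4 and I53A #1, against 6.47, 6.26 and 5.70 without OHT. The mock line had 6.51 with OHT and 5.95 without. WT #1 had 5.33 with OHT and 5.77 without, and WT #3 had 5.90 with OHT and 5.30 without. The lines of 1 construct went opposite ways: the changes were -0.44 in WT #1 and 0.60 in WT #3, the widest gap of any member between the WT lines. Its mean change in the mutant lines was -0.12 ± 0.32 (SD, n = 3; limma, adjusted p = 0.795).

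Of the Sprouty genes, whose products bind adaptors of growth factor receptors and RAF, *Spry4* had the largest mean change. Averaged over 4 probe sets, its signal was 5.36, 5.34 and 5.10 in OHT+ cells of I53S #1, I53S #4 and I53A #1, against 6.04, 6.02 and 5.43 in their OHT- cells. The mock line had 5.10 with OHT and 5.76 without. WT #1 and WT #3 had 5.23 and 5.39 with OHT, against 5.17 and 5.67 without. The 3 mutant lines and the mock line were all lower with OHT, and I53A #1 (-0.33) and WT #3 (-0.28) lay close together. The mean change in the mutant lines, -0.56 ± 0.20 (SD, n = 3), missed the threshold (limma, adjusted p = 0.0551), as did that of the mock line, -0.66 (adjusted p = 0.171).

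The 4 probe sets of *Spry4* did not move as 1. Probe set 1445669_at, the brightest, gave changes of -1.11, -0.85 and -1.06 in I53S #1, I53S #4 and I53A #1, -1.51 in the mock line, and 0.57 and -0.04 in WT #1 and WT #3. Fitted on its own row among all probe sets kept, its mean change of -1.005 in the mutant lines was called (limma, adjusted p = 0.0382), whereas 1440867_at with -0.38 (adjusted p = 0.26) and 1422021_at with -0.18 (adjusted p = 0.734) were not. Probe set 1422020_at was lower with OHT in every line, WT lines included (-0.83 and -0.66), but its levels of 3.50 to 4.61 lay near the signal threshold. How far the gene's average moved therefore turned on which probe sets were read. With the brightest probe set alone *Spry4* was called in the mutant lines (-1.005, adjusted p = 0.0194), and with only the 2 probe sets whose mean passed a stricter filter it was called in both the mutant lines (-0.69, adjusted p = 0.00809) and the mock line (-1.07, adjusted p = 0.0221).

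*Spry1* and *Spry2* had mean changes near 0 in the mutant lines. *Spry1* (1415874_at) read 7.25, 7.37 and 7.23 in OHT+ cells of the mutant lines, against 7.23, 7.43 and 7.09 in their OHT- cells, with a mean change of 0.03 ± 0.10 (SD, n = 3). In the mock line it was 6.84 with OHT and 7.28 without, a change of -0.44 that lies outside the range of the 5 other lines, -0.13 to 0.13 (limma, adjusted p = 0.216). *Spry2*, averaged over 2 probe sets, had changes of -0.22 to 0.06 with mutant Ring1B, -0.10 with mock and -0.02 to 0.04 with WT Ring1B. The 95% interval of its mean change in the mutant lines ran from -0.31 to 0.17.

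*Spred1*, whose product recruits the RAS inhibitor neurofibromin to the membrane, was averaged over 7 probe sets. Its changes were 0.01, -0.42 and -0.09 in I53S #1, I53S #4 and I53A #1, -0.12 in the mock line, and 0.09 and 0.00 in WT #1 and WT #3. The probe sets scattered: 1423162_s_at gave -1.12 in I53S #4 and 0.14 in I53S #1, and 1452911_at gave 1.16 in WT #1 and -0.76 in WT #3. The mean change in the mutant lines, -0.17 ± 0.22 (SD, n = 3), did not pass the test (limma, adjusted p = 0.426).

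**Figure D2:**
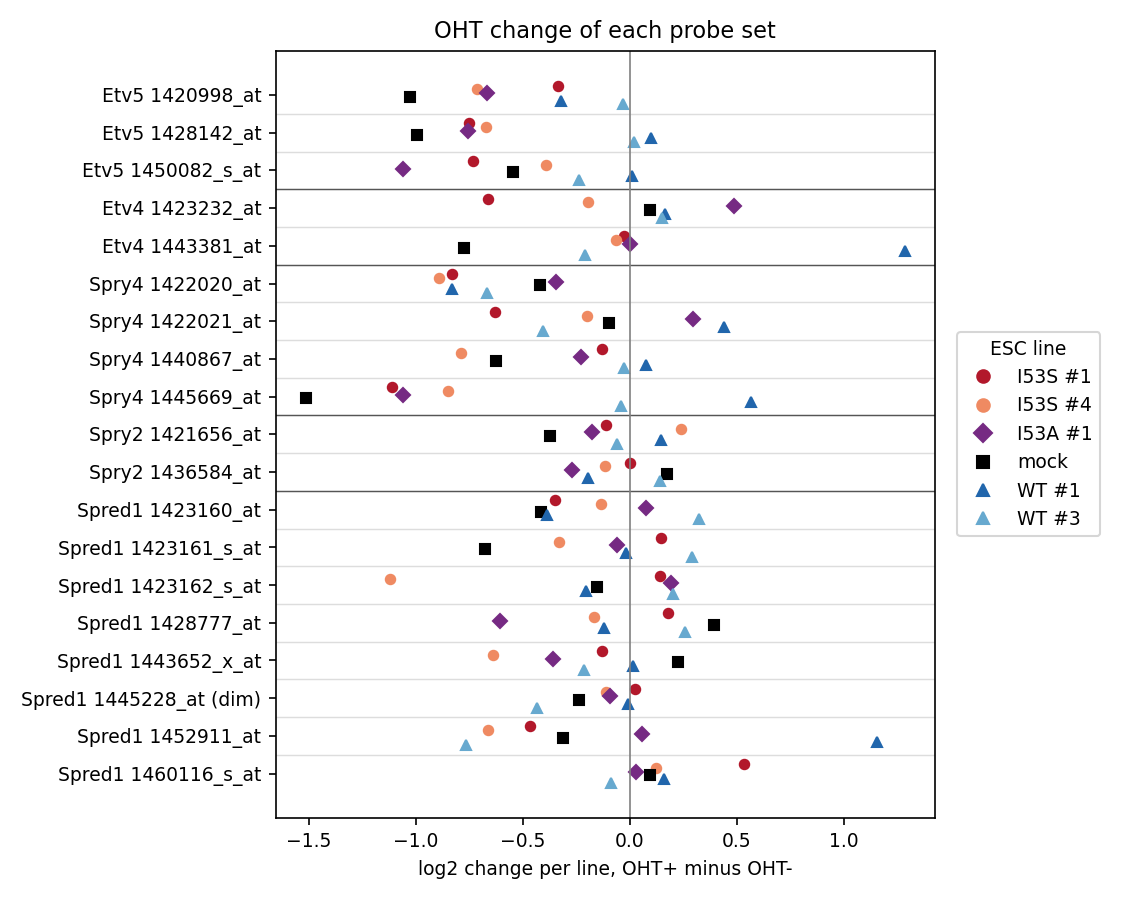
Log2 change (OHT+ minus OHT-) of each probe set of the 5 genes with more than 1, with 1 point per ESC line; the probe set marked as dim did not pass the signal filter. The 3 *Etv5* probe sets keep all mutant lines and the mock line between -1.06 and -0.33, whereas the *Spred1*, *Spry4* and *Etv4* probe sets scatter on both sides of 0.

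*Etv5* encodes an ETS transcription factor that FGF receptor signalling induces. Its signal, averaged over 3 probe sets, was 8.32, 8.70 and 8.09 in OHT+ cells of I53S #1, I53S #4 and I53A #1, against 8.92, 9.29 and 8.92 in their OHT- cells. The mock line had 8.39 with OHT and 9.25 without. WT #1 and WT #3 had 8.77 and 9.11 with OHT, against 8.84 and 9.19 without. Every mutant line and the mock line was lower with OHT by 0.59 or more, while WT #1 and WT #3 were lower by 0.07 and 0.08. *Etv5* fell to 0.627 of its OHT- signal in the mutant lines (log2 change -0.67 ± 0.09, SE; limma, adjusted p = 0.0178). In the mock line its change of -0.85 missed the threshold (adjusted p = 0.07), and in the WT lines it was -0.08 (adjusted p = 0.935).

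Each *Etv5* probe set was lower with OHT in all 3 mutant lines and in the mock line. The means in the mutant lines were -0.73 for 1428142_at (limma, adjusted p = 0.0316 over all probe sets), -0.73 for 1450082_s_at (adjusted p = 0.0795) and -0.57 for 1420998_at (adjusted p = 0.0891). Without 1 of the mutant lines, calls over all genes fell from 1062 to between 153 and 194. The call of *Etv5* needed all 3 mutant lines. The adjusted p-value was 0.0851 without I53S #1 (-0.71), 0.0816 without I53S #4 (-0.72) and 0.0877 without I53A #1 (-0.60), and 0.102 in a fit with no replicate block, that is, without a term for the line.

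The promoter windows of *Etv5* are shown because this gene carries the clearest change, with that of *Dusp6*, which did not pass the test, beside them. Windows run from 250 bases before to 50 after an annotated start and come from RefSeq (build GRCm38.p6). They were searched for 5 members only: *Dusp6*, *Spry1*, *Spry2*, *Spred1* and *Etv5*, the last with 2 starts. No window of *Dusp4*, *Spry4*, *Etv4*, *Phlda1* or *Myc* was searched, so the counts below say nothing about these genes. Capitals mark GGAA or its reverse complement TTCC, the core that ETS factors recognize.
Etv5 at chr16:22439521-22439820, minus strand: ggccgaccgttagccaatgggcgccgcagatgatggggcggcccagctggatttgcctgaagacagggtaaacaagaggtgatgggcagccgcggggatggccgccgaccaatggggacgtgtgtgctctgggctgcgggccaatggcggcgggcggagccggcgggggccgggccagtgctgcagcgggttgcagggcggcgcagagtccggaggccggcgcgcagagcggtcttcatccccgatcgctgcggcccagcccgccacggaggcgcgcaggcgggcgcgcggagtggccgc
Etv5 at chr16:22438319-22438618, minus strand: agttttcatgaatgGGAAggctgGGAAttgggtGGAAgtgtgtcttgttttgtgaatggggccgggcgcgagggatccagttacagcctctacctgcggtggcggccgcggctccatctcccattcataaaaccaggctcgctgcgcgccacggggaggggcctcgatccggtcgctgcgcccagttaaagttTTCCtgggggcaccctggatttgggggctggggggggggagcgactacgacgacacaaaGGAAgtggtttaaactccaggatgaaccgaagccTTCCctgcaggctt
Dusp6 at chr10:99262981-99263280, plus strand: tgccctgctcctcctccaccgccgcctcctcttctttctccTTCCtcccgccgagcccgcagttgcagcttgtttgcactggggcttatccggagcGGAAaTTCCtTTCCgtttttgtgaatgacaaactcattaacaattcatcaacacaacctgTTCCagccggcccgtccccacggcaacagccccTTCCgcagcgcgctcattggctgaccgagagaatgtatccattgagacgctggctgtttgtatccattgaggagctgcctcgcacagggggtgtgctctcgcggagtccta

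The core occurred 0 times in the first *Etv5* window and 6 times in the second, and 6 times in the *Dusp6* window; *Spry2* and *Spred1* had 5 each and *Spry1* had 1. It is a frequent word, found in 96% of 32851 mouse windows of 300 bases, with a median of 3 matches, and it was added to the search after the other motifs had been run. The longer ETS site CCGGAAGT (in 3.89% of all windows), the cAMP response element TGACGTCA (1.79%) and the AP-1 site TGANTCA (7.81%), searched on both strands, had no match in any of the 6 windows. These counts describe letters in the windows only; binding was not measured on these arrays.

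*Etv4*, the close relative of *Etv5*, was not called in any comparison. Averaged over 2 probe sets, its signal was 6.06, 6.88 and 6.34 in OHT+ cells of I53S #1, I53S #4 and I53A #1, against 6.41, 7.01 and 6.09 in their OHT- cells. The mock line had 6.22 with OHT and 6.56 without. WT #1 had 6.37 with OHT and 5.64 without, and WT #3 had 6.76 with OHT and 6.79 without. The high change of WT #1, 0.73, came from the dimmer probe set 1443381_at, which gave -0.77 in the mock line and 1.29 in WT #1. The brighter 1423232_at gave 0.10 in the mock line and 0.17 in WT #1. The adjusted p-value was 0.839 in the mutant lines (limma).

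*Phlda1* encodes a pleckstrin homology-like protein whose transcript is induced by growth factors and ERK. It was the only member with a higher signal after OHT in all 6 lines. Its probe set (1418835_at) read 8.70, 9.0 and 7.88 in OHT+ cells of I53S #1, I53S #4 and I53A #1, against 8.22, 8.82 and 7.17 in their OHT- cells. The mock line had 8.44 with OHT and 7.77 without, and WT #1 and WT #3 had 7.72 and 8.0 with OHT, against 7.29 and 7.68 without. The change was 0.18 to 0.71 over the mutant lines, 0.68 with mock and 0.31 to 0.43 over the WT lines, and these ranges overlap. The mean change in the mutant lines was 0.46 (SE 0.12; limma, adjusted p = 0.0923), and its difference from the WT lines was 0.09, with a 95% interval of -0.39 to 0.57.

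*Myc* encodes a transcription factor of growth and self-renewal, induced by ERK as an early gene and, in ESCs, also by LIF signalling. Its probe set (1424942_a_at) read 7.23, 7.25 and 6.01 in OHT+ cells of I53S #1, I53S #4 and I53A #1, against 7.82, 7.85 and 6.95 in their OHT- cells. The mock line had 7.28 with OHT and 8.38 without. WT #1 and WT #3 had 7.47 and 7.82 with OHT, against 7.33 and 7.77 without. All 3 mutant lines and the mock line were lower with OHT, whereas both WT lines were slightly higher. *Myc* fell to 0.611 of its OHT- signal in the mutant lines (log2 change -0.71 ± 0.11, SE; limma, adjusted p = 0.022). The change of the mock line was -1.10 (adjusted p = 0.0603) and that of the WT lines 0.09 (adjusted p = 0.935).

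The spread of *Myc* between lines was wide, and I53A #1 had the lowest signal both with and without OHT. The call again needed all 3 mutant lines: the adjusted p-value was 0.0887 without I53S #1 (-0.77), 0.088 without I53S #4 (-0.77) and 0.0918 without I53A #1 (-0.59), and 0.39 with no replicate block. For the mock line, both *Myc* and *Etv5* were called when the deposited values were used without normalization (-1.44 and -1.23, each with adjusted p = 0.0393). That setting moved the median of all genes in the mock line by -0.34.

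**Figure D3:**
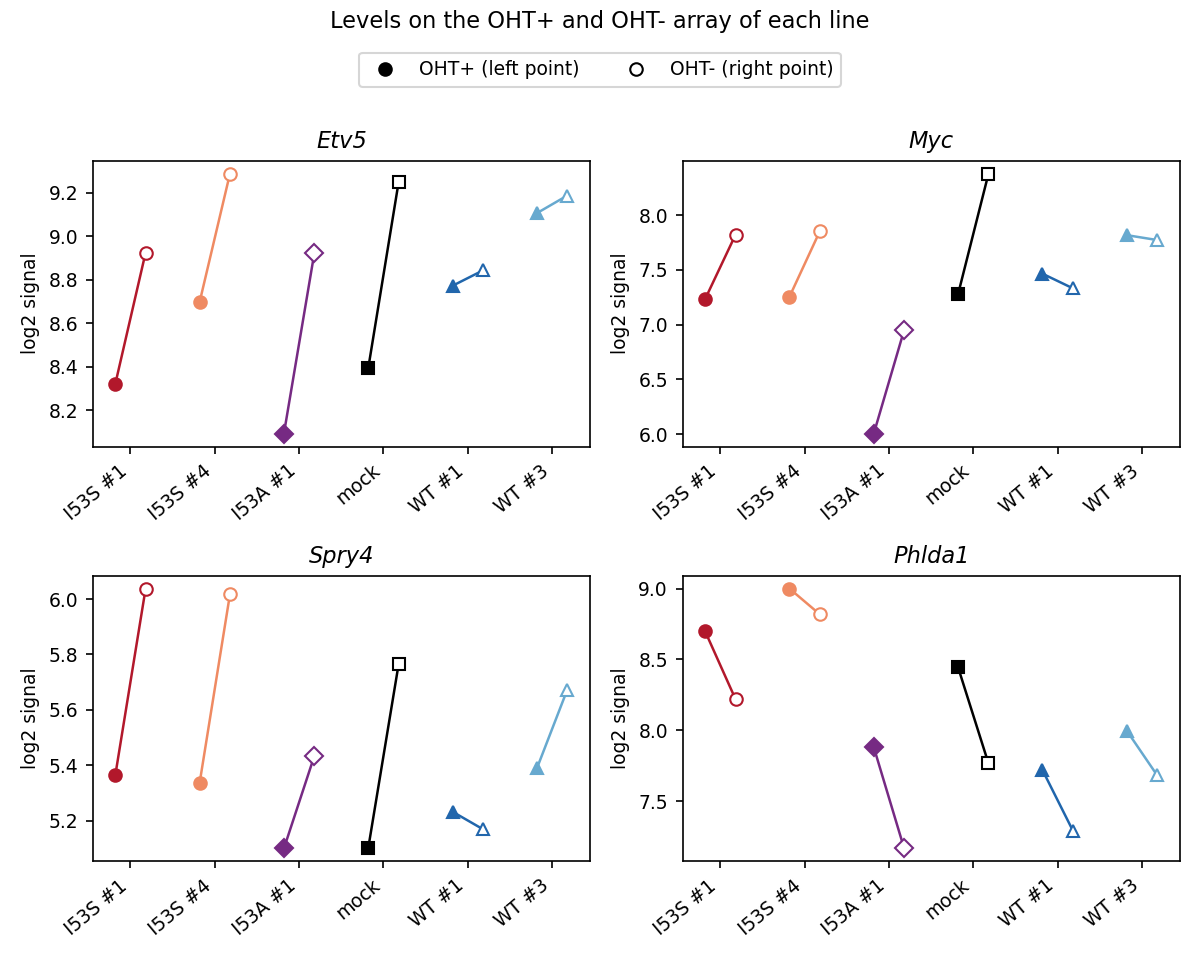
Log2 signal of *Etv5*, *Myc*, *Spry4* and *Phlda1* on the OHT+ array (filled, left) and the OHT- array (open, right) of each ESC line, joined by a line. In the mutant lines and the mock line *Etv5*, *Myc* and *Spry4* have the OHT+ point below the OHT- point, and *Phlda1* has it above in all 6 lines.

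Whether the change after OHT differed between constructs was tested directly. In 4 of 10 members (*Dusp6*, *Spry4*, *Etv5* and *Myc*) all 3 mutant lines changed below both WT lines, a pattern that 15% of all genes tested showed, and in 0 members all 3 lay above, against 16.1% of genes. Mutant minus WT was -0.80 for *Myc* (95% interval -1.22 to -0.38; limma, adjusted p = 0.182) and -0.60 for *Etv5* (-0.96 to -0.24; adjusted p = 0.21). Neither passed the test, and no gene of the 16432 did (0%), while 12.6% of genes, and these 2 members, had an unadjusted p under 0.05. The difference was -0.45 for *Spry4* (-0.92 to 0.02; adjusted p = 0.416) and -0.21 for *Dusp6* (-0.55 to 0.14; adjusted p = 0.612).

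The mock line differed from the WT lines by -1.19 for *Myc* (95% interval -1.75 to -0.62; limma, adjusted p = 0.151) and by -0.78 for *Etv5* (-1.27 to -0.29; adjusted p = 0.204). These were the 2 members with an unadjusted p under 0.05, beside 14.4% of all genes, and 0% were called after adjustment. Between the mock line and the mutant lines no member was called either (0% of genes), and *Spry1*, with -0.48, was the member with an unadjusted p under 0.05 (8.05% of genes). The difference was -0.39 for *Myc* (-0.92 to 0.14) and -0.18 for *Etv5* (-0.64 to 0.28), so a gap of either sign between empty vector and mutant remains within these intervals.

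The levels before OHT did not separate the mutant from the WT lines, and the mock line was not part of that comparison. None of the 10 members was called between mutant and WT lines (0% of all genes were), and none had an unadjusted p under 0.05 (5.25% of genes). In 0 members all 3 mutant lines lay above both WT lines, and in 0 all below, each a pattern of 10.2% of genes. The largest differences were 0.61 for *Dusp4* (95% interval -0.02 to 1.23) and 0.58 for *Phlda1* (-0.45 to 1.62; limma, adjusted p = 0.951 and 0.953). After OHT, mutant minus WT was -0.57 for *Etv5* (-1.09 to -0.05, limma, adjusted p = 0.287) and -0.81 for *Myc* (-1.73 to 0.11, adjusted p = 0.382). For *Spry4* it was -0.04 after OHT (-0.42 to 0.33), beside 0.41 before OHT (-0.19 to 1.00). *Spry4* thus ended near the WT level in the mutant lines. No member was called in the comparison after OHT, beside 0.682% of all genes (0.633% higher and 0.0487% lower). There, 1 member had an unadjusted p under 0.05 (15.5% of genes).

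Lines of 1 construct differed widely in 3 of the brakes. Before OHT, *Dusp6* was 9.85 in I53S #4 and 8.96 in I53S #1, *Spry2* 8.70 and 7.82, and *Spred1* 6.24 and 5.51, so that the 2 lines of the same mutant held opposite ends of the range or lay near them. Across the 12 arrays *Dusp6* and *Spry2* correlated at r = 0.94, the highest of the 45 pairs of members, and *Dusp6* and *Spred1* at 0.87. The 2 arrays of a line lie close together, so the 12 points come from only 6 lines, and the coefficient is a description. Over the changes after OHT in the 6 lines, r was -0.11 for *Dusp6* and *Spry2* and 0.69 for *Dusp6* and *Spred1*. The genes outside the pathway lists whose levels were most like those of *Dusp6* were *Serhl* (r = 0.93), *Capsl* (0.90) and *Cyb5r2* (0.90), and those most like *Spry4* were *Med6* (0.92), *Rarg* (0.90) and *Morf4l2* (0.89), each over 12 arrays.

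**Figure D4:**
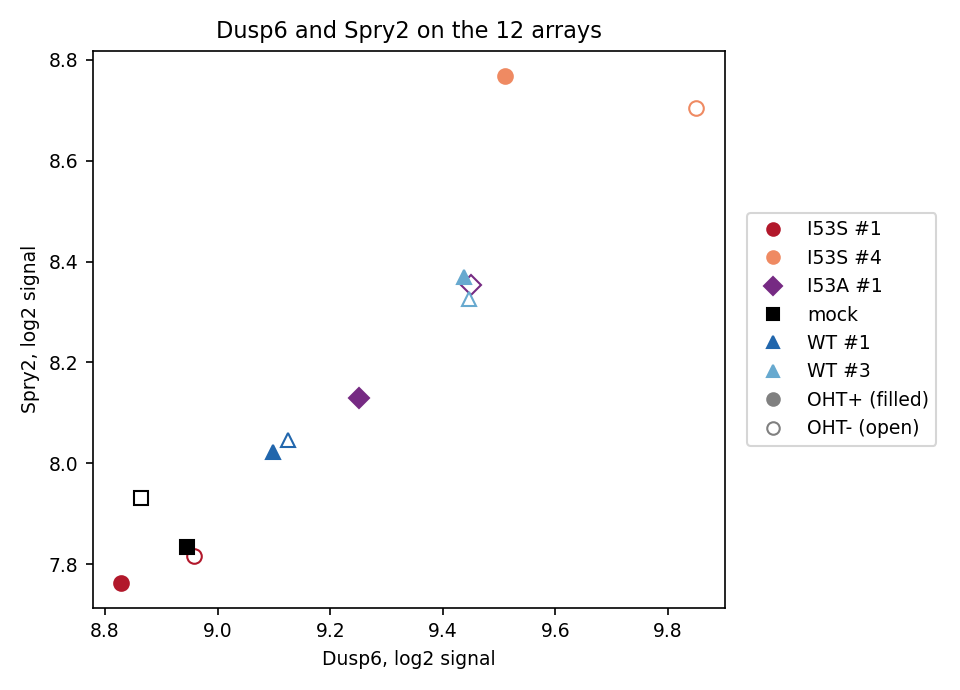
Log2 signal of *Spry2* against that of *Dusp6* on the 12 arrays, filled for OHT+ and open for OHT-, with a color and marker for each ESC line. The points run along 1 diagonal from I53S #1 and mock at the low end to I53S #4 at the high end, and both arrays of a line lie close to each other.

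Other genes of the pathway were taken from 4 lists. Among FGF ligands, receptors and adaptors, 16 of 17 were measured, of which 1 was called higher and 1 lower in the mutant lines (median 0.05). Among RAS, RAF, MEK and ERK genes, 8 of 15 were measured and 1 was called lower (median -0.03). Of the other inhibitors 14 of 15 were measured and 1 was called higher (median 0.16). Of the other outputs 17 of 18 were measured and 1 was called lower (median -0.04). That makes 5 of 55 genes called (9.09%) in the mutant lines, close to the 6.46% of all genes called in the same fit, and 4 of 55 (7.27%) in the mock line, against 1.67% of all genes. The choice of these lists was made with results of the data known, so these shares are a description.

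*Fgf8*, an FGF ligand of the early embryo, read 5.0, 5.24 and 5.12 in OHT+ cells of I53S #1, I53S #4 and I53A #1, whereas their OHT- signals of 3.59 to 3.69 were all under the signal threshold and give only a bound. Set against the threshold, it was at least 2.26-fold higher with OHT in the mutant lines (limma on the measured values, adjusted p = 0.00617). It read 4.38 with OHT and 3.65 without in the mock line, and 4.28 and 4.5 with OHT, against 4.03 and 3.86 without, in WT #1 and WT #3. The OHT- signals of the mock line and of WT #3 were under the threshold too. *Fgf17*, a ligand of the same subfamily, fell in the mutant lines (mean -1.01; adjusted p = 0.019) and in the mock line (-1.94; adjusted p = 0.0375), with 0.19 and -0.24 in the WT lines. *Eras*, a RAS gene of ESCs whose protein is constitutively active, fell in the mutant lines (mean -0.95; limma, adjusted p = 0.0166) and in the mock line (-1.47; adjusted p = 0.0445). WT #1 and WT #3 had -0.19 and 0.04.

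*Dusp9*, a cytoplasmic ERK phosphatase related to *Dusp6*, rose by 1.17, 0.90 and 0.94 in I53S #1, I53S #4 and I53A #1 (mean 1.00; limma, adjusted p = 0.00826) and by 1.23 in the mock line (adjusted p = 0.0404), with 0.22 and 0.24 in the WT lines. *Egr1*, an immediate early gene of ERK, fell with changes of -2.11, -1.43 and -1.37 in the mutant lines (mean -1.63; adjusted p = 0.00941) and -2.00 in the mock line (adjusted p = 0.0445), and it was lower in WT #1 and WT #3 as well (-0.85 and -0.52). Set against the WT lines, the change of the mutant lines did not pass the test for any of these 5 (adjusted p = 0.148 for *Fgf8*, 0.194 for *Fgf17* and *Eras*, 0.153 for *Dusp9* and 0.26 for *Egr1*).

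Some of these calls needed single lines. Without 1 of the mutant lines, calls over all genes in the mutant lines fell too, from 1062 to between 153 and 194. Without any 1 of the 5 lines other than mock, the mock line lost every call over all genes. In the mutant lines *Fgf17* and *Eras* lost the call without any 1 of the 3 mutant lines (*Fgf17*, adjusted p = 0.0933 without I53S #1, 0.0704 without I53S #4 and 0.0833 without I53A #1; *Eras*, 0.0737, 0.0794 and 0.0611 in the same order). *Dusp9* lost it without I53A #1 (limma, adjusted p = 0.0526) and *Egr1* without I53S #4 (0.0519). All 4 calls of the mock line were lost when any 1 of the 5 remaining lines, whose spread sets its error, was left out, with adjusted p-values of 0.0549 to 0.096. With no replicate block, *Fgf17* was not called in the mutant lines (adjusted p = 0.166), nor was any of the 4 genes in the mock line (0.213 for *Fgf17*, 0.0967 for *Eras*, 0.0682 for *Dusp9* and 0.249 for *Egr1*). The mock line also lost *Dusp9* with values as deposited (0.81, adjusted p = 0.0596) and *Egr1* with its brightest probe set alone (-2.00, adjusted p = 0.0501).

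**Figure D5:**
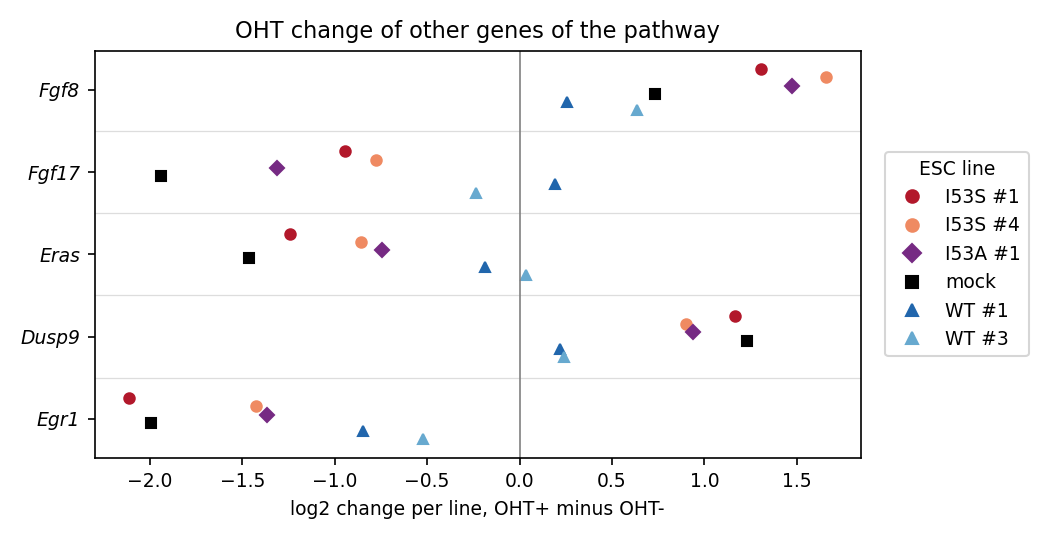
Log2 change (OHT+ minus OHT-) in each ESC line of the 5 other pathway genes called in the mutant lines, with 1 point per line; for *Fgf8* the OHT- signal was under the threshold in every line but WT #1. *Fgf8* and *Dusp9* lie above 0 in all 6 lines, *Egr1* lies below 0 in all 6, and the mutant lines lie farther from 0 than the WT lines for each of the 5 genes.

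Markers of other cell types changed in the mutant lines and the mock line too, the fibroblast markers least in I53A #1. The ESCs had been grown on irradiated fibroblast feeders or on gelatin, and the 16 of 18 fibroblast markers measured had median changes of 0.68, 0.24 and 0.16 in I53S #1, I53S #4 and I53A #1, 0.70 in the mock line and 0.03 and 0.07 in the WT lines. Their summed linear signal ranged from 2370 to 8728 with OHT, against 2252 to 5251 without, in the mutant lines, was 8097 against 5080 in the mock line, and ranged from 2362 to 2847 with OHT, against 2269 to 2595 without, in the WT lines. The mutant lines were unlike each other: the sum was 8728 against 5251 in I53S #1, 4991 against 4186 in I53S #4 and 2370 against 2252 in I53A #1. Of the 16 markers, 16, 15 and 9 had changes above 0 in these lines, beside 10 in WT #1 and 11 in WT #3. *Thy1* and *Lox* were called higher in the mutant lines (4.91% of all genes were), and *Thy1* in the mock line (1.29%). Of the 2 not measured, *Lum* did not exceed the signal threshold on any array. In bulk samples, fewer cells of a type and less RNA per cell cannot be told apart.

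Of 8 primitive endoderm markers *Gata6* and *Col4a1* were called higher in the mutant lines, and *Foxa2* with them in the mock line. Over all genes 4.91% and 1.29% were called higher in these fits. Over the 8, 6 changes were above 0 in the mutant lines (median 0.48), 7 in the mock line (median 1.01) and 2 in the WT lines (median -0.06), and *Lama1* was at -0.36 with mutant Ring1B and -0.53 with mock. The summed signal of the 8 was 1119 to 1920 with OHT, against 869 to 1467 without, in the mutant lines, 1217 against 571 in the mock line and 706 to 932, against 641 to 914, in the WT lines. Of 7 trophectoderm markers *Eomes*, *Krt8* and *Krt18* were called higher in the mutant lines (4.91% of all genes were). The summed signal of the 7 was 1789 to 3470 with OHT, against 1252 to 2454 without, in the mutant lines. The mock line had 3119 against 1719, and the WT lines 1436 to 1915 against 1421 to 1728. Over these 7, 6 changes were above 0 with mutant Ring1B (median 0.34), 7 with mock (median 0.78) and 4 with WT (median 0.05). None of the 8 ESC markers was called in the mutant lines (6.46% of all genes were), with a median change of -0.24, beside -0.19 with mock and 0.03 with WT Ring1B. The part of these other cell types in the changes of *Etv5*, *Myc* and *Spry4* was not tested.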

How the data were processed

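Per probe set and array, the authors deposited 1 value, a log2 signal. The labels credit RMA in Affymetrix Expression Console, with versions that are not given in the sources used here; the supporting methods describe MAS5 signals and quantile normalization. As the deposited log2 distributions differed between arrays, values were quantile normalized. Of 45101 probe sets, 64 controls were left out, and 34945 of the others had 1 symbol, 932 several and 9160 none. Probe sets with a highest signal above 3.94, or the 30th percentile over all arrays, were retained and averaged per gene (16432 genes). The OHT effect of each construct class was fitted with limma 3.58.1 in R 4.3.3 (lmFit, eBayes, two-sided), each line being a block; degrees of freedom were 3 (residual) and 2.79 (prior). P-values were adjusted by Benjamini-Hochberg with a threshold of 0.05. The block pairs arrays of 1 line, whose deviations from class means correlated at 0.27 to 0.43. Nothing says that the lines were cultured apart, so p-values measure the spread between these lines. Differences between mutant and WT lines before or after OHT were fitted on single arrays per line. The code was tested on simulated data. The members and lists were chosen with earlier results of these data known. All probe sets of the members were described. Of each other list the called genes with the largest change in the mutant lines, at most 3, were named, and markers and pairs of members were named after their values were seen. Alternatives were other normalizations, filters, probe set summaries, priors and call rules, no block, and each line left out.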

Additional observations from a re-analysis of the deposited data

How the results depend on the processing

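In the mutant lines 2 members were called. The count was 4 when probe sets had to exceed the median of all values on average, 4 with a trended and robust prior, 0 with no replicate block, 0 when I53A #1 was set apart from the mutant class, and between 0 and 2 with 1 line left out (0 without any mutant line, 2 otherwise). In the mock line 0 members were called; 2 were with values as deposited, 3 with that stricter filter, 1 with the brightest probe set and 3 with the trended and robust prior, and 0 with any line left out. For the mutant minus WT and the mock minus WT difference, 2 members each were called with the trended and robust prior, against 0, and calls over all genes rose with it to 272 and 453, each against 0. Over all genes the calls in the mutant lines (1062) ranged from 153 to 2219 and those in the mock line (275) from 0 to 1340. In the mutant lines they were 1777 with the stricter filter, 2219 with the trended and robust prior and 563 with no replicate block. Those of the mock line rose under the first 2 of these settings too. Values as deposited and the brightest probe set each gave 3 members in the mutant lines, with 1111 and 1175 genes called. With each probe set on its own row, 3 probe sets of members were called there. With values as deposited, 175 of 922 calls in the mock line were higher, against 212 of 275 after quantile normalization, and 540 of 1111 in the mutant lines, against 807 of 1062. The median of all genes moved to -0.34 in the mock line and -0.13 in the mutant lines.

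*Etv5* and *Myc* stayed below 0 in the mutant lines under all 15 alternatives and were called in 10 of them each. *Spry4* was called in 4 of 15 and *Phlda1* in 2 of 15. Directions turned for *Phlda1* and *Fgf8* in mock minus WT (-0.076 and -0.0403) with values as deposited, *Etv4* in the mock line (0.10 with the stricter filter, 0.10 with the brightest probe set), *Etv4* in the WT lines (-0.029 to 0.73 with 1 line left out, -0.029 without WT #1) and *Dusp4* in mock minus WT (-0.048 to 0.996 with 1 line left out, -0.048 without WT #1). These 6 are uncalled under the alternative, but their value as reported was more than 1 SE from 0. Another 76 sign changes, of 1465 values, belonged to results whose reported value was within 1 SE of 0, and were not counted as turned. The cause was not tested.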
